A study of Homo sapiens with 8 samples.

Results

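Notch receptors, their ligands and the HES/HEY genes that the pathway switches on were followed in ovarian cancer cells with and without a targeted PDE10A gene. The set held 10 of the 67008 genes in the count table: the receptor genes NOTCH1, NOTCH2 and NOTCH3, the ligand genes JAG1, JAG2 and DLL1, and the transcription factor genes HES1, HES2, HES4 and HEY1. They were chosen by the measured levels of JAG2 and HES2, lower in both knockout clones of these same data, with the other 8 taken as the rest of the pathway, so knockout and control values of all 10 are given as a description, with no p. RNA-seq was done on SKOV3 cells, a long-established line of human ovarian cancer. The knockout lines were the clones KO 2F4 and KO 5H5, in which PDE10A, a phosphodiesterase of cAMP and cGMP, was targeted. The control lines were the clone EV 1B9, which carries an empty vector, and the uncloned parental culture. Every line had 2 libraries, labelled as untreated cells of different culture passages. The second of each line carries the title suffix UnTx, whose meaning is not known here, so the pair may differ in more than passage. Each knockout line and the empty-vector line stands for 1 clone only.

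Notch receptors are single-pass membrane proteins that bind Jagged and Delta-like ligands on neighbouring cells. Binding lets ADAM proteases and then gamma-secretase cut the receptor, and the freed intracellular part enters the nucleus, where it joins the DNA-binding protein RBPJ and a Mastermind coactivator to switch on target genes. HES and HEY genes are the best known targets and encode basic helix-loop-helix repressors, some of which repress their own genes. Jagged ligands and NOTCH3 have been studied widely in ovarian cancer.

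Gene counts summed to between 15483683 and 28648044 per library, and levels are CPM, counts relative to library size, scaled with TMM, which corrects for differences in RNA composition. A count of 3 was worth 0.0864 to 0.229 CPM. PDE10A had 0.192 and 2.32 CPM in KO 2F4 and 0.222 and 0.424 CPM in KO 5H5, against 5.27 and 8.94 CPM in EV 1B9 and 9.17 and 2.45 CPM in parental cells. The 2.32 CPM of KO 2F4 replicate 2 and the 2.45 CPM of parental replicate 2 lay close together, and these counts do not show which part of the gene was altered. All 11 epithelial and SKOV3 markers had counts in every line, with summed levels of 5762 to 19880 CPM over the 8 libraries. Some of them were low. EPCAM had 0.766 and 0.150 CPM in KO 2F4 and 0.666 and 1.09 CPM in KO 5H5. It had 7.02 and 9.54 CPM in EV 1B9 and 2.06 and 5.89 CPM in parental cells. CDH1 had 0.622 and 0 CPM in KO 2F4 and 0.547 and 0.122 CPM in EV 1B9, but 3.94 and 5.22 CPM in KO 5H5. WT1 had 0.288 and 0.0812 CPM in EV 1B9. Summed fibroblast markers (7 genes) lay at 6.42 to 42.1 CPM in KO 2F4 and 897 to 1942 CPM in KO 5H5, against 36.8 to 151 CPM in EV 1B9 and 129 to 149 CPM in parental cells. In KO 5H5 that sum was mostly COL1A1 (887 and 1922 CPM), while COL3A1 was at 0 in both KO 5H5 libraries and DCN at 0.0555 and 0 CPM. Endothelial and haematopoietic markers (6 genes each) summed to at most 5.66 and 1.83 CPM. In such bulk RNA, fewer cells with a transcript and less transcript per cell cannot be told apart. Libraries also differed in how a gene's deviation from its mean related to GC content (rank correlation -0.494 in EV 1B9 replicate 2 to 0.413 in KO 2F4 replicate 2), so values with offsets for GC content and length are added where they move a value by over 1.5 times.

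JAG2 encodes a ligand of the Jagged type, and its level per length was above that of JAG1 in every library. JAG2 (ENSG00000184916.9, GRCh38 chromosome 14, 105140981 to 105168824) had 22.5 and 22.8 CPM in KO 2F4 and 36.9 and 34.6 CPM in KO 5H5, against 142 and 160 CPM in EV 1B9 and 96.6 and 128 CPM in parental cells. All 4 knockout libraries lay below all 4 control libraries, and KO 2F4 lay below KO 5H5. The means were 29.2 ± 7.63 CPM in knockout and 132 ± 27.0 CPM in control libraries (SD, n = 4 each), with a log2 fold change of -2.18 (SE 0.32). Over 18 alternative ways of processing it lay between -2.35 and -2.01. The 4 neighbouring genes that were tested within 100 kb did not pass the test of knockout against control (edgeR's quasi-likelihood test, adjusted over all genes): GPR132 had a log2 fold change of -0.83 (adjusted p = 0.534), NUDT14 0.34 (adjusted p = 0.785), BTBD6 0.23 (adjusted p = 0.824) and BRF1 0.07 (adjusted p = 0.938).

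HES2 encodes a HES-family repressor whose control by Notch is less established than that of HES1. HES2 (ENSG00000069812.11, chromosome 1, 6412418 to 6424670) had 0.814 and 0.898 CPM in KO 2F4 and 2.66 and 3.92 CPM in KO 5H5, against 101 and 89.2 CPM in EV 1B9 and 20.3 and 32.1 CPM in parental cells. The 4 lines kept apart from each other with no overlap between their libraries. Behind the low values stood 17 and 12 counts in KO 2F4 and 48 and 111 counts in KO 5H5. The means were 2.07 ± 1.5 CPM in knockout and 60.7 ± 40.4 CPM in control libraries (SD, n = 4 each), with a log2 fold change of -4.85 (SE 0.69), with -5.32 to -4.45 over the 18 alternatives.

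HES1 encodes the HES repressor most often used as a readout of Notch activity. HES1 (ENSG00000114315.4, chromosome 3, 194136145 to 194138732) had 6.70 and 8.16 CPM in KO 2F4 and 8.55 and 14.5 CPM in KO 5H5, against 29.8 and 20.5 CPM in EV 1B9 and 43.7 and 34.6 CPM in parental cells. Knockout and control libraries did not overlap, and the lines ran in the order KO 2F4, KO 5H5, EV 1B9 and parental by mean. The means were 9.48 ± 3.45 CPM in knockout and 32.2 ± 9.67 CPM in control libraries (SD, n = 4 each), with a log2 fold change of -1.76 (SE 0.39), with -2.0 to -1.43 over the alternatives.

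The stretches before the start sites of these 3 genes are shown because their knockout and control levels were the furthest apart by fold among the members, and because RBPJ binds DNA at the letters TGGGAA. The RefSeq promoter table (GRCh38.p14) held 8 of the 10 genes, and DLL1 and HEY1 were not matched. Capitals mark TGGGAA on the printed strand. The windows are chr3:194135898-194136144 on the plus strand for HES1, chr1:6419920-6420169 on the minus strand for HES2 and chr14:105168825-105169026 on the minus strand for JAG2, each 250 bases before the transcript start, less any bases inside a GENCODE 29 exon. The HES2 window lies inside the GENCODE gene (6412418 to 6424670), before an inner start. The stretch before the outer end of HES2 was not searched.
HES1: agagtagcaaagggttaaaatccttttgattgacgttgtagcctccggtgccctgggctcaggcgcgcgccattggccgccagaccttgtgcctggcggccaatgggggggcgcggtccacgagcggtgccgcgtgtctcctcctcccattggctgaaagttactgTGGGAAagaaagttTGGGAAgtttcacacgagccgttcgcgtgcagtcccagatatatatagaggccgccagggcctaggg
HES2: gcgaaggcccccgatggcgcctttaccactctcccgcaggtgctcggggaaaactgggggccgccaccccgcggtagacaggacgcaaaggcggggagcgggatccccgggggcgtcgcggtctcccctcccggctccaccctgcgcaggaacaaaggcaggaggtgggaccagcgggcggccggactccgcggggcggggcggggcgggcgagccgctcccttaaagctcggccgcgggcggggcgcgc
JAG2: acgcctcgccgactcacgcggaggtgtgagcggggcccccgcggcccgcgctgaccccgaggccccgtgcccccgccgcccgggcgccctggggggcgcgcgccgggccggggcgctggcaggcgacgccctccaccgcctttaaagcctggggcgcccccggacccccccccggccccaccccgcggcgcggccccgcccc
In the 250 bases before the start, both strands searched, TGGGAA stood in the windows of 2 of the 8 genes, and 20.8% of all 35116 promoters held it. HES1 had 2 copies, whose first bases lay 84 and 70 bases before the start, and HES4 had 1 copy, 76 bases before it. The longer GTGGGAA, which contains TGGGAA and so counts the same places again, also stood in the windows of HES1 and HES4 and in 5.43% of all promoters. Neither stood in the windows of HES2, JAG2, JAG1, NOTCH1, NOTCH2 or NOTCH3. CACNAG, the N-box letters that HES proteins can bind, stood in 2 of the 8 windows and in 32% of all promoters. These matches describe letters only and say nothing of binding in these cells.

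**Figure D1:**
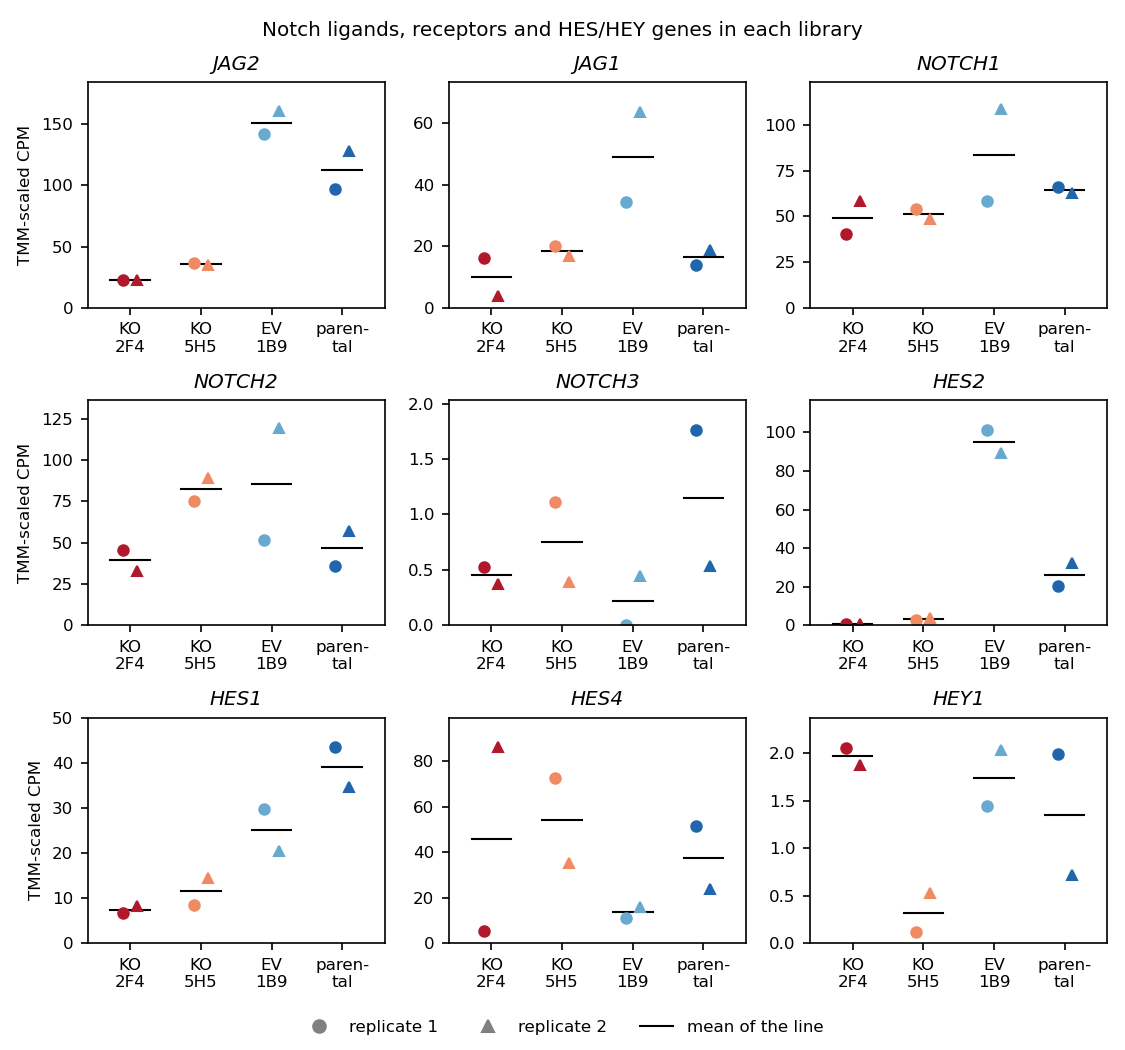
Level in every library (y axes, TMM-scaled CPM, linear and from 0) of the 9 genes with counts, by line, with circles and triangles for replicates 1 and 2 and a bar at the mean of the line. JAG2, HES2 and HES1 sit lower in all 4 knockout libraries than in all 4 control libraries, while JAG1, NOTCH2, NOTCH3, HES4 and HEY1 overlap between knockout and control.

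JAG1, the other Jagged ligand gene, did not separate the classes. JAG1 (ENSG00000101384.12, chromosome 20, 10637684 to 10673999) had 16.1 and 3.82 CPM in KO 2F4 and 20.0 and 16.9 CPM in KO 5H5, against 34.5 and 63.6 CPM in EV 1B9 and 13.8 and 18.8 CPM in parental cells. EV 1B9 stood above the other 3 lines, and the parental values lay among those of the clones. The means were 14.2 ± 7.12 CPM in knockout and 32.7 ± 22.4 CPM in control libraries (SD, n = 4 each), with a log2 fold change of -1.20 (SE 0.56), which was -0.59 without EV 1B9 replicate 2 (-1.38 to -0.59 over the alternatives). JAG1 had a log2 fold change of -1.33 in KO 5H5 against EV 1B9, but 0.20 in KO 5H5 against parental cells.

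DLL1, a Delta-like ligand gene, had 0 counts in all 8 libraries. FAM120B, which overlaps DLL1 on chromosome 6, was also at 0, as was NOTCH4, the remaining receptor gene, and MAML1, a Mastermind coactivator gene, had 1 count in total. PBX2 and RNF5, which lie near NOTCH4, were at 0 too, while AGPAT1 nearby had 725 counts in total. Because widely expressed genes such as FAM120B and MAML1 are at or near 0 here, a count of 0 does not show that DLL1 or NOTCH4 was silent. DLL4 had 0 counts in the 4 knockout libraries, against 5 and 1 counts in EV 1B9 and 11 and 3 counts in parental cells, too few to be tested. DLL3, a divergent ligand gene whose protein can inhibit Notch in its own cell, had 6.70 and 14.1 CPM in KO 2F4 and 8.82 and 4.34 CPM in KO 5H5, against 2.94 and 2.03 CPM in EV 1B9 and 8.48 and 7.45 CPM in parental cells. Its classes overlapped, and its log2 fold change was 0.70 (SE 0.56, edgeR adjusted p = 0.579).

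NOTCH1 was the receptor gene with the highest mean level per length in both classes. NOTCH1 (ENSG00000148400.12, chromosome 9, 136494433 to 136545786) had 40.1 and 58.4 CPM in KO 2F4 and 54.3 and 48.5 CPM in KO 5H5, against 58.5 and 109 CPM in EV 1B9 and 66.0 and 62.6 CPM in parental cells. The classes did not overlap, but the highest knockout value of 58.4 CPM and the lowest control value of 58.5 CPM all but met. The log2 fold change was -0.56 (SE 0.31), with -0.72 to -0.27 over the alternatives, the smallest size being that without EV 1B9 replicate 2. Means were 50.3 ± 7.92 CPM in knockout and 73.9 ± 23.3 CPM in control libraries (SD, n = 4 each).

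NOTCH2 (ENSG00000134250.20, chromosome 1, 119911553 to 120069626), a second receptor gene, has near-identical partial copies in the NOTCH2NL genes, so its counts are uncertain. It had 45.6 and 33.1 CPM in KO 2F4 and 75.1 and 89.4 CPM in KO 5H5, against 51.6 and 120 CPM in EV 1B9 and 36.2 and 57.0 CPM in parental cells. The classes overlapped throughout, and the log2 fold change of -0.12 (SE 0.43) kept its sign in 14 of 18 alternatives. NOTCH3 (ENSG00000074181.9, chromosome 19, 15159038 to 15200981) had 0.527 and 0.374 CPM in KO 2F4 and 1.11 and 0.388 CPM in KO 5H5, against 0 and 0.447 CPM in EV 1B9 and 1.76 and 0.536 CPM in parental cells. That is at most 23 counts in a library, and its log2 fold change of -0.15 (SE 1.11) kept its sign in 10 of 18 alternatives (0.13 with GC and length offsets), so no direction can be given for NOTCH3 at this depth.

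HES4, a HES gene of humans that mice lack, differed more between the 2 KO 2F4 libraries than between the class means. HES4 (ENSG00000188290.10, chromosome 1, 998962 to 1000172) had 5.46 and 86.0 CPM in KO 2F4 and 72.8 and 35.3 CPM in KO 5H5, against 11.1 and 16.0 CPM in EV 1B9 and 51.6 and 23.6 CPM in parental cells. The 2 libraries of KO 2F4 held both the lowest and the highest value of the 8. The means were 49.9 ± 36.6 CPM in knockout and 25.6 ± 18.1 CPM in control libraries (SD, n = 4 each), with a log2 fold change of 0.96 (SE 0.68), and of 1.51 (SE 0.45) with GC and length offsets. It was 0.60 without KO 2F4 replicate 2 and 1.59 without parental replicate 1, and in KO 2F4 against EV 1B9 the log2 fold change of 1.76 turned to -1.26 without KO 2F4 replicate 2. The 3 libraries with the most HES4, KO 2F4 replicate 2, KO 5H5 replicate 1 and parental replicate 1, were also the 3 in which GC-rich genes stood highest (rank correlations 0.413, 0.236 and 0.381), and 73.9% of the bases of the HES4 transcript are G or C. The part of that in the HES4 values was not tested.

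HEY1, a repressor gene of the HEY branch, was low in all lines. It had 2.06 and 1.87 CPM in KO 2F4 and 0.111 and 0.529 CPM in KO 5H5, against 1.44 and 2.03 CPM in EV 1B9 and 1.99 and 0.714 CPM in parental cells. KO 5H5 stood below the other 3 lines, and KO 2F4 lay at the upper end of the controls. The log2 fold change was -0.44 (SE 0.85), and leaving out KO 5H5 replicate 1 alone brought it to -0.0079 (-0.91 with limma-voom, the other end of the range).

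Of the 10 genes, 9 passed the filter on low counts. These 9 had a median log2 fold change of -0.56, against -0.14 for all genes, and in 4 of them all knockout libraries lay below all control libraries, as did 6.19% of all genes. The choice of the genes used this contrast, so nothing is read from this count. Per length, the control order was HES4 (22.9 ± 16.2 CPM per kb), JAG2 (20.6 ± 4.21), HES1 (15.6 ± 4.69), HES2 (11.2 ± 7.47), NOTCH1 (7.13 ± 2.25), NOTCH2 (3.93 ± 2.19), JAG1 (3.52 ± 2.41), HEY1 (0.477 ± 0.190) and NOTCH3 (0.0729 ± 0.0801 CPM per kb, SD, n = 4). Neighbours in that order differed by more than the larger of their SDs for JAG2 and HES1, NOTCH1 and NOTCH2, JAG1 and HEY1, and HEY1 and NOTCH3, and the other neighbours did not. In knockout libraries HES4 again came first (44.6 ± 32.7 CPM per kb), and NOTCH1 (4.85 ± 0.763), HES1 (4.60 ± 1.67) and JAG2 (4.56 ± 1.19) had nearly equal levels per length, followed by NOTCH2 (3.62 ± 1.55), JAG1 (1.53 ± 0.765), HES2 (0.384 ± 0.277), HEY1 (0.354 ± 0.299) and NOTCH3 (0.0639 ± 0.0369 CPM per kb, SD, n = 4). There the differences above the larger SD were those between HES4 and NOTCH1, NOTCH2 and JAG1, and JAG1 and HES2.

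Ratios within a library show how the balance inside each role differed. HES2 per kb was 0.0463 and 0.0420 of HES1 in KO 2F4 and 0.119 and 0.103 in KO 5H5, against 1.29 and 1.66 in EV 1B9 and 0.177 and 0.354 in parental cells. HES2 therefore exceeded HES1 per length only in the 2 EV 1B9 libraries. JAG2 per kb was 2.03 and 8.66 times JAG1 in KO 2F4 and 2.68 and 2.98 times in KO 5H5, against 5.98 and 3.67 times in EV 1B9 and 10.2 and 9.87 times in parental cells. JAG2 exceeded JAG1 in all 8 libraries, and the knockout and control ratios overlapped.

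Each clone was set against each control as well, again as a description, and these comparisons share their samples. JAG2 had log2 fold changes of -2.69 in KO 2F4 against EV 1B9, -2.33 in KO 2F4 against parental cells, -1.99 in KO 5H5 against EV 1B9 and -1.63 in KO 5H5 against parental cells. In the same order, HES2 had -6.74, -4.96, -4.75 and -2.96, and HES1 had -1.71, -2.42, -1.02 and -1.73. The change of smallest size was that of KO 5H5 against parental cells for JAG2 and HES2 and of KO 5H5 against EV 1B9 for HES1.

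**Figure D2:**
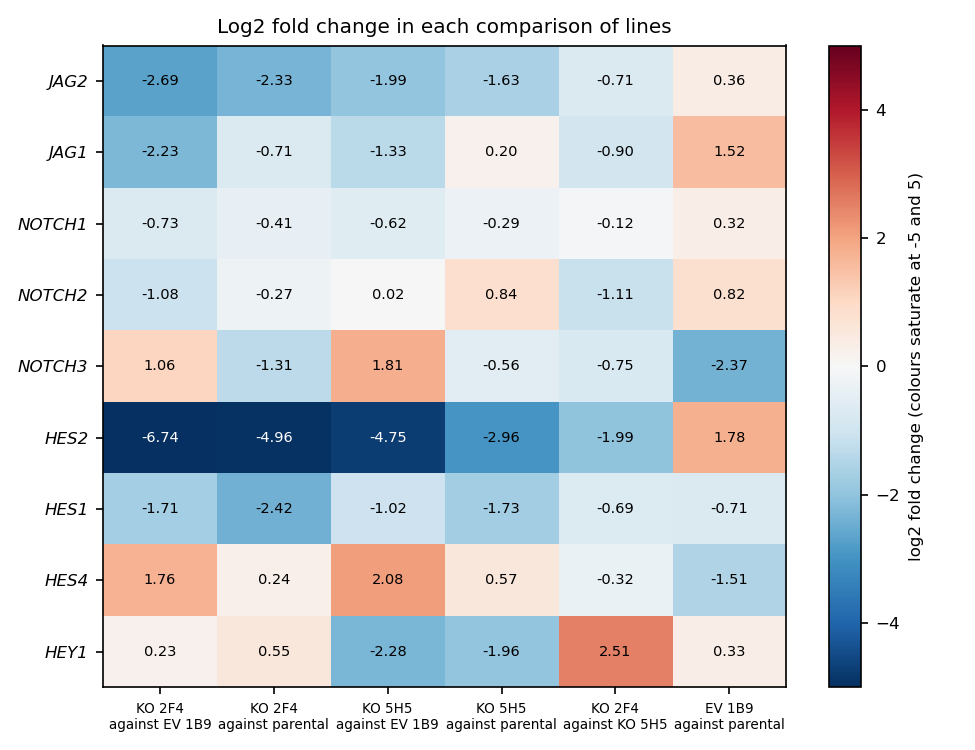
Log2 fold change (colour and printed value) of each of the 9 genes with counts (rows) in the 6 comparisons of lines (columns). HES2 runs from -6.74 to -2.96 and JAG2 from -2.69 to -1.63 in the 4 comparisons of a clone with a control, whereas JAG1, NOTCH2, NOTCH3 and HEY1 change sign between them.

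The comparison of the 2 control lines was not used to choose the genes, and it asks how far lines without a knockout differ. Of the 9 genes tested, 0 passed edgeR's quasi-likelihood test in EV 1B9 against parental cells, where 1.34% of all genes were called (adjusted p under 0.05). JAG1 and HES2 had an unadjusted p under 0.05. That count was not made over all genes in the comparisons of lines, so nothing is read from it. DESeq2 called 1 of the 9, beside 1349 of all 15551 genes. HES2 averaged 95.2 ± 8.39 CPM in EV 1B9 and 26.2 ± 8.40 CPM in parental cells (SD, n = 2 each), with a log2 fold change of 1.78 (SE 0.43, edgeR adjusted p = 0.0633). It passed in 9 of 15 alternatives, with adjusted p of 0.00161 to 0.426 over them, among them GC and length offsets (2.38, adjusted p = 0.0144) and the omission of parental replicate 2, of either KO 5H5 library or of either KO 2F4 library. JAG1 was at 1.52 on the log2 scale (SE 0.60, adjusted p = 0.176) and passed with no filter (adjusted p = 0.0334) and without EV 1B9 replicate 1, KO 2F4 replicate 1 or KO 2F4 replicate 2, with adjusted p of 0.00987 to 0.598 over the 15. HES4 had -1.51 (SE 0.83, adjusted p = 0.294) and passed without parental replicate 2, KO 2F4 replicate 1 or KO 2F4 replicate 2, with adjusted p of 0.0238 to 0.824, and had -0.99 (SE 0.49) with the offsets. JAG2 had 0.36 (SE 0.39, adjusted p = 0.597), HES1 -0.71 (SE 0.44, adjusted p = 0.352) and NOTCH1 0.32 (SE 0.42, adjusted p = 0.674), none of them past the threshold in any of the 15 alternatives. The size of these did depend on the processing: with GC and length offsets JAG2 had 0.95 (SE 0.41, adjusted p = 0.294) and NOTCH1 0.96 (SE 0.34, adjusted p = 0.202), and without EV 1B9 replicate 2 NOTCH1 had -0.21.

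JAG2 and HES2 were chosen as lower in both knockout clones, so their values in a comparison of the 2 clones are not free of that choice. The difference between the clones was not itself used to choose the genes and was likewise open to a test. Of the 9 genes, 0 passed it in KO 2F4 against KO 5H5, where 0.392% of all genes were called, while NOTCH2, HES2 and HEY1 had an unadjusted p under 0.05. DESeq2 called 1 of the 9, beside 348 of all 15551 genes. HES2 averaged 0.856 ± 0.0597 CPM in KO 2F4 and 3.29 ± 0.887 CPM in KO 5H5 (SD, n = 2 each), with a log2 fold change of -1.99 (SE 0.49, edgeR adjusted p = 0.123). It passed in 5 of 15 alternatives, with adjusted p of 0.0207 to 0.772, among them the omission of parental replicate 2 or of either EV 1B9 library. HEY1 was at 2.51 on the log2 scale (SE 1.11, adjusted p = 0.446) and NOTCH2 -1.11 (SE 0.48, adjusted p = 0.438). JAG2 averaged 22.6 ± 0.180 CPM in KO 2F4 and 35.7 ± 1.66 CPM in KO 5H5, and its log2 fold change was -0.71 (SE 0.39, adjusted p = 0.543). HES4 had -0.32 (SE 0.81, adjusted p = 0.931), which became -3.32 (adjusted p = 0.00025) without KO 2F4 replicate 2 and 0.55 without KO 2F4 replicate 1, so either library of KO 2F4 decides the value. With GC and length offsets HES4 had -1.25 (SE 0.49, adjusted p = 0.306). JAG1 had -0.90 and passed at -2.40 (adjusted p = 0.0100) without KO 2F4 replicate 1.

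A further 86 genes of the pathway, listed by role, were tested in knockout against control, where 72 had enough counts. Of these 1 was called higher, MFAP2, and 2 were called lower, DTX1 and MFAP5, which is 4.17% beside the 1.42% of all genes. The calls of MFAP2 and MFAP5 were known when the lists were drawn, so nothing is read from that share. An unadjusted p under 0.05 was reached by 14 of the 72. With RLE size factors it was reached by 2010 of all 13508 genes tested, and the count of the main fit is not given here. The 72 genes had a median log2 fold change of -0.24, with 26 positive and 46 negative values. DTX1, a Deltex ubiquitin ligase gene that Notch induces, had 0.766 and 0.823 CPM in KO 2F4 and 1.33 and 1.31 CPM in KO 5H5, against 3.20 and 5.04 CPM in EV 1B9 and 8.48 and 10.0 CPM in parental cells. It fell by 2.65 on the log2 scale (SE 0.55, edgeR adjusted p = 0.0344). All its knockout libraries lay below all its control libraries, as in 6.19% of all genes. The call was lost, at adjusted p of 0.0545 to 0.117, without parental replicate 1, parental replicate 2, EV 1B9 replicate 2, KO 5H5 replicate 1, KO 5H5 replicate 2, KO 2F4 replicate 1 or KO 2F4 replicate 2, and also with counts summed per line (adjusted p = 0.466) and with limma-voom, which estimates a correlation within lines (adjusted p = 0.231). DTX1 passed in 7 of 18 alternatives, with log2 fold changes of -2.87 to -2.33 over them.

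MFAP2 and MFAP5 encode microfibril glycoproteins that have been described as non-canonical Notch ligands. Both calls were known from the earlier results that led to these lists. Their p-values, here and in the comparisons of a clone with a control, are therefore a description and not an independent test. MFAP2 had 16.7 and 66.8 CPM in KO 2F4 and 15.5 and 17.9 CPM in KO 5H5, against 0 and 0.406 CPM in EV 1B9 and 1.22 and 2.63 CPM in parental cells. It rose by 4.80 on the log2 scale (SE 1.03, edgeR adjusted p = 0.0390), a call lost without parental replicate 1, EV 1B9 replicate 2, KO 5H5 replicate 1, KO 2F4 replicate 1 or KO 2F4 replicate 2 (adjusted p of 0.0545 to 0.121), with counts summed per line (adjusted p = 0.283) and with limma-voom (adjusted p = 0.106). MFAP5 had 15.7 and 20.7 CPM in KO 2F4 and 46.0 and 37.3 CPM in KO 5H5, against 166 and 203 CPM in EV 1B9 and 82.8 and 67.3 CPM in parental cells. It fell by 2.12 (SE 0.46, edgeR adjusted p = 0.0405), a call lost on leaving out any 1 of the EV 1B9, KO 5H5 or KO 2F4 libraries (adjusted p of 0.0669 to 0.132), with counts summed per line (adjusted p = 0.474) and with limma-voom (adjusted p = 0.0853). The third non-canonical ligand gene with a small p, CCN3, was at -1.81 on the log2 scale (SE 0.61, adjusted p = 0.184), with 7.61 and 3.44 CPM in KO 2F4 and 3.55 and 3.39 CPM in KO 5H5, against 22.9 and 29.4 CPM in EV 1B9 and 4.13 and 6.47 CPM in parental cells. EV 1B9 stood above the other 3 lines, and the parental values lay within the range of the knockout clones.

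**Figure D3:**
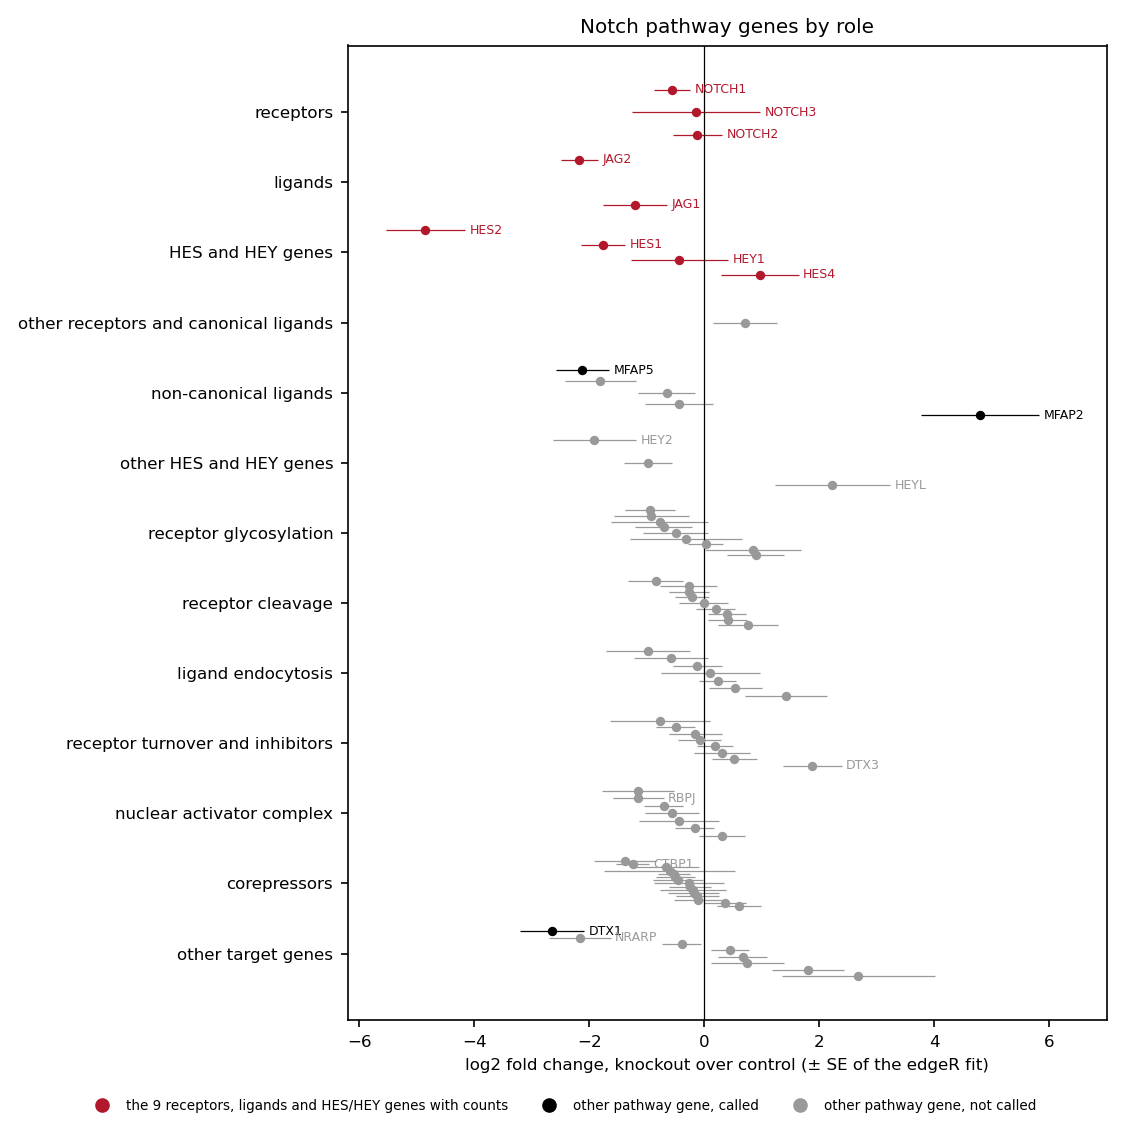
Log2 fold change of knockout over control (x axis, with the SE of the edgeR fit) for the 9 members with counts and the 72 other pathway genes tested, in rows by role. MFAP2 at 4.80, MFAP5 at -2.12 and DTX1 at -2.65 are the called genes among the other 72 (black), and most roles are spread on both sides of 0.

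Among the remaining target genes, NRARP, a feedback inhibitor that Notch induces, was lower without passing the test. It had 0.910 and 1.05 CPM in KO 2F4 and 2.22 and 0.812 CPM in KO 5H5, against 6.59 and 4.31 CPM in EV 1B9 and 5.81 and 5.67 CPM in parental cells. The means of 1.25 ± 0.656 CPM in knockout and 5.59 ± 0.950 CPM in control libraries (SD, n = 4 each) gave a log2 fold change of -2.17 (SE 0.53, edgeR adjusted p = 0.0702), and NRARP passed in 3 of 18 alternatives, DESeq2 among them (adjusted p = 0.00193), with 0.00193 to 0.512 over all. CDKN1A, a cell cycle inhibitor gene, had 1.80 (SE 0.63, adjusted p = 0.196). In the list of other target genes 1 of 8 tested was called, and the median log2 fold change was 0.56.

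The other HES and HEY genes pointed both ways, with 0 of 3 tested called by edgeR and 3 of 3 at an unadjusted p under 0.05. With RLE size factors 2010 of all 13508 genes tested reached that level, and a list of 3 genes is too short to set beside it. HEY2 had 0.622 and 0.150 CPM in KO 2F4 and 1.28 and 1.16 CPM in KO 5H5, against 3.43 and 1.83 CPM in EV 1B9 and 4.89 and 2.19 CPM in parental cells, and its log2 fold change was -1.92 (SE 0.72, adjusted p = 0.235). HEYL had 6.27 and 10.1 CPM in KO 2F4 and 6.49 and 4.41 CPM in KO 5H5, against 0 and 0.325 CPM in EV 1B9 and 2.45 and 3.12 CPM in parental cells, and its log2 fold change was 2.23 (SE 1.00, adjusted p = 0.319). Both genes had classes that did not overlap, in opposite directions. All knockout libraries lay below all control libraries, as for HEY2, in 6.19% of all genes. The share over all genes for the direction of HEYL is not given here. HES6, which can oppose HES1, had -0.98 (SE 0.42, adjusted p = 0.297).

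The genes that bring the signal from the membrane to the nucleus held 0 calls in knockout against control. There 1.42% of all genes were called, and lists this short can hold 0 at that share, so these genes are not shown to be unchanged. Of the receptor glycosylation genes, 0 of 9 were called and the median log2 fold change was -0.50, with the xylosyltransferase gene XXYLT1 at -0.94 (SE 0.43, adjusted p = 0.326) and the Fringe gene RFNG at 0.89 (SE 0.50, adjusted p = 0.421). Of the receptor cleavage genes, 0 of 9 were called (median -0.01), with ADAM10, the first of the cutting proteases, at -0.85 (SE 0.47, adjusted p = 0.423), and the gamma-secretase subunit gene APH1B at 0.76 (SE 0.52, adjusted p = 0.523). The ligand endocytosis genes had 0 of 7 called (median 0.10), with MIB1, a ubiquitin ligase needed for ligand activity, at -0.98 (SE 0.72, adjusted p = 0.552). The turnover and inhibitor genes had 0 of 8 called (median 0.05), with DTX3 at 1.88 (SE 0.51, adjusted p = 0.0959), which passed in 5 of 18 alternatives. In the nuclear activator complex 0 of 7 were called (median -0.56), and RBPJ had -1.15 (SE 0.44, adjusted p = 0.245) and MAML2, a Mastermind coactivator gene, -1.16 (SE 0.63, adjusted p = 0.410). Of the corepressors 0 of 15 were called (median -0.26). CTBP1, one of them, averaged 78.6 ± 4.91 CPM in knockout and 186 ± 39.6 CPM in control libraries (SD, n = 4 each), with a log2 fold change of -1.25 (SE 0.29, edgeR adjusted p = 0.0533), which passed in 4 of 18 alternatives. Counts at an unadjusted p under 0.05 were 1 each for the glycosylation, turnover and nuclear lists, 2 for the corepressors and 0 for the cleavage and endocytosis lists. With RLE size factors 2010 of all 13508 genes tested reached that level, so nothing is read from these small counts.

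Among the comparisons of lines, LFNG set EV 1B9 apart. LFNG encodes the Fringe glycosyltransferase that extends sugars on Notch and shifts its preference between Delta-like and Jagged ligands. It had 17.8 and 40.7 CPM in KO 2F4 and 37.5 and 36.0 CPM in KO 5H5, against 1.24 and 2.15 CPM in EV 1B9 and 29.2 and 40.7 CPM in parental cells. EV 1B9 stood alone at the bottom, and the knockout clones overlapped the parental cells. In EV 1B9 against parental cells LFNG fell by 4.44 on the log2 scale (SE 0.56, edgeR adjusted p = 0.00074), the only 1 of 75 other pathway genes called there, and it passed in all 15 alternatives. In knockout against control it had 0.85 (SE 0.83, adjusted p = 0.662).

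LFNG, HEYL and CCN3 were called in both clones against EV 1B9, CCN3 as lower, and in neither clone against parental cells. The difference itself, EV 1B9 against parental cells, passed for LFNG and was -4.22 for HEYL (SE 1.04, edgeR adjusted p = 0.0656, and 2.27e-06 to 0.109 over 15 alternatives), and 2.23 for CCN3 (SE 0.56, adjusted p = 0.0674). Against EV 1B9, 22 of 75 other pathway genes were called in KO 2F4 (9 higher, 13 lower, beside 13% of all genes) and 5 in KO 5H5 (3 higher, 2 lower, beside 4.38%). In KO 2F4 against EV 1B9, MFAP2 rose by 7.79 (edgeR adjusted p = 0.000623), HEYL by 5.74 (adjusted p = 0.00475) and LFNG by 4.14 (adjusted p = 0.000432). In KO 5H5 against EV 1B9 the same 3 genes led with 6.55 for MFAP2, 5.21 for HEYL (edgeR adjusted p = 0.0117) and 4.53 for LFNG (adjusted p = 0.000277). EV 1B9 had 0 and 10 counts of MFAP2 and 0 and 8 counts of HEYL, so the size of their fold changes is uncertain. Without EV 1B9 replicate 2 they were 12.8 for MFAP2 and 10.4 for HEYL in KO 2F4, and 11.5 for MFAP2 and 9.93 for HEYL in KO 5H5, fitted against a lone library at 0. RBPJ, at 4.74 and 4.57 CPM in KO 2F4 against 12.8 and 19.4 CPM in EV 1B9, was called lower there at -1.75 (edgeR adjusted p = 0.0443), but had -0.61 (adjusted p = 0.393) with GC and length offsets, and those libraries differ in GC correlation. NRARP (-2.42, adjusted p = 0.0448) and DTX1 (-2.32, adjusted p = 0.0364) were called lower in the same comparison by edgeR.

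Against parental cells 3 of the other pathway genes were called in KO 2F4, namely MFAP2, up by 4.35 (edgeR adjusted p = 0.0280), DTX1, which fell by 3.56 (adjusted p = 0.0208), and MFAP5, which fell by 2.07 (adjusted p = 0.0218, and 0.0819 without parental replicate 1), beside 1.34% of all genes. In KO 5H5 against parental cells, where 0.74% of all genes were called, edgeR called 0 of 75. DESeq2 called 2 of them, beside 363 of all 15551 genes, and 11 had an unadjusted p under 0.05. In KO 2F4 against KO 5H5 edgeR again called 0 of 75 and DESeq2 2, beside 348 of all genes, and the unadjusted p of 16 was under 0.05. No share over all genes is given for these unadjusted counts, so nothing is read from them.

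**Figure D4:**
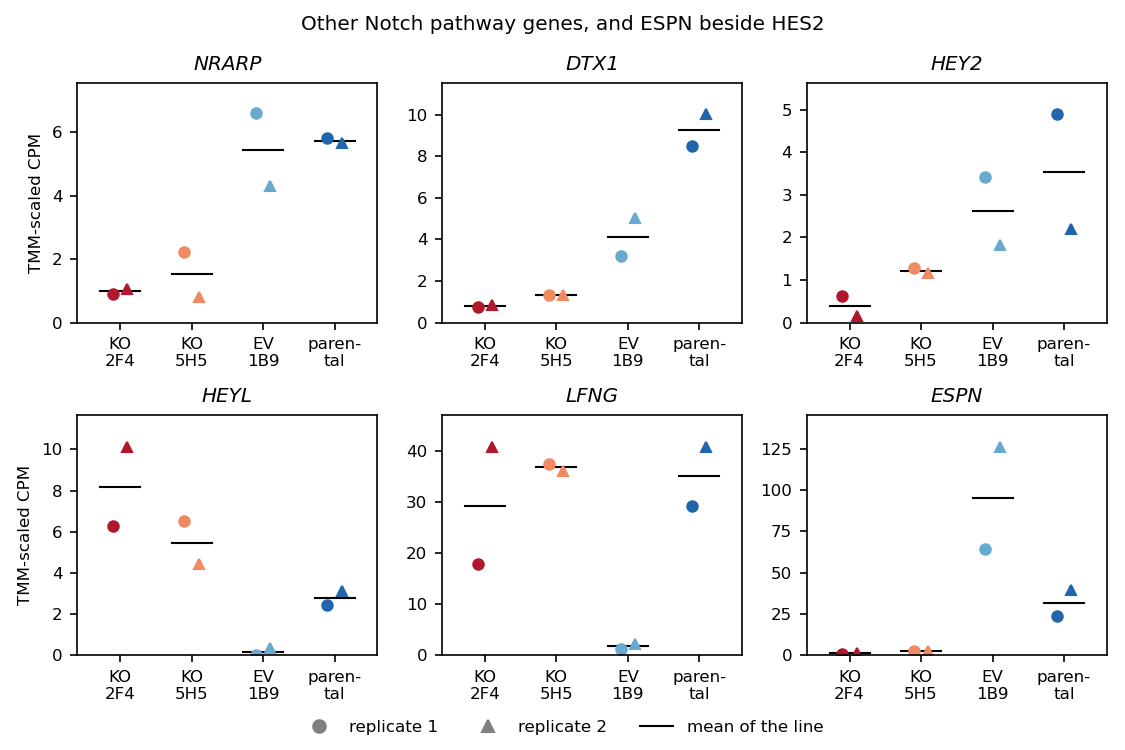
Level in every library (y axes, TMM-scaled CPM, linear and from 0) of NRARP, DTX1, HEY2, HEYL, LFNG and ESPN, by line, with circles and triangles for replicates 1 and 2 and a bar at the mean of the line. NRARP, DTX1, HEY2 and ESPN are lower in all knockout libraries (as are 6.19% of all genes), HEYL is higher in all of them, and LFNG is low in EV 1B9 alone, at 1.24 and 2.15 CPM.

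The genes whose log2 CPM ran most like JAG2 over the 8 libraries, among 10958 protein-coding genes, were IMPA2, an inositol monophosphatase gene (Pearson r 0.994), ESPN (0.992), the neuromedin receptor gene NMUR2 (0.990), the basal keratin gene KRT5 (0.989) and HES2 itself (0.987). For HES2 they were FGFBP1, which encodes an FGF-binding protein (0.987), KRT5 (0.987), JAG2 (0.987), ESPN (0.984) and GLT8D1 (0.982). These are descriptions over libraries that fall into 2 classes and share their depth and composition. JAG2 and HES2 were chosen together for the same class difference, so nothing is read from the correlation between them. KRT5 averaged 2.62 CPM in knockout and 2521 CPM in control libraries.

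ESPN, which encodes the actin-bundling protein espin, is also the nearest neighbour of HES2. It lies on the other strand of chromosome 1 (6424776 to 6461367) and starts 106 bases from the outer end of HES2, the end used by 1 HES2 transcript form in GENCODE 29. ESPN had 0.766 and 1.35 CPM in KO 2F4 and 2.55 and 2.22 CPM in KO 5H5, against 64.0 and 126 CPM in EV 1B9 and 23.7 and 39.3 CPM in parental cells. As with HES2, EV 1B9 was highest and both clones were lowest. The other 4 genes tested within 100 kb of HES2 did not pass edgeR's test of knockout against control: ACOT7 had 0.31 (adjusted p = 0.699), NOL9 -0.60 (adjusted p = 0.472), PLEKHG5 -0.57 (adjusted p = 0.407) and TNFRSF25 -1.05 (adjusted p = 0.266).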

How the data were processed

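RNA was sequenced from 8 SKOV3 cultures (4 lines, 2 libraries each) after directional library preparation, per the labels. The authors deposited a single table of unnormalized read counts. Tools named in the submitters' processing notes, with no role, are HTSeq 0.11.3, STAR 2.7.3a, DESeq2 1.26.0 and bcl2fastq 2.18.0.12, and the build is GRCh38. The annotation release and the counting's strand setting were not given in the sources used here, so overlapping genes on opposite strands are uncertain. All columns matched a sample by title, and unmatched columns numbered 0. The 5 summary lines that name no gene (24.1% to 44.6% of counted reads per library) stayed out of library sizes and tests. Coordinates, exonic lengths and GC content came from GENCODE 29, and 60649 identifiers (90.5%) had a symbol.

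Counts were scaled with TMM (factors 0.779 to 1.21), filtered with filterByExpr (minimum count 10, minimum total 15) and tested with edgeR 4.0.16 in R 4.3.3 by the quasi-likelihood test, with Benjamini-Hochberg adjustment over all genes at 0.05. Knockout against control used the 8 libraries as 2 classes, and each of the 6 line comparisons was a contrast of line means with 1 shared spread. Fold changes and their SE come from these fits. P-values treat both libraries of a line as independent. In knockout against control they measure the spread between culture passages and lines, not between independently made clones. In the comparisons of lines they measure only the spread between the 2 libraries of a line, and no spread between lines enters. The scripts were tested on simulated data.

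The members, the gene lists and the tests were chosen with earlier results of these data known. NRARP was misspelled in the written list, and its symbol was corrected after the counts were seen. Named genes were PDE10A, the 10 members, RBPJ, MAML1, NRARP, LFNG and NOTCH4, every other pathway gene called in knockout against control, the 3 smallest p-values of each list, the 3 largest called changes in each comparison of lines, and the 5 genes most like JAG2 and HES2 with a mean of at least 1 CPM. Neighbouring genes, FAM120B, DLL4, KRT5 levels and MFAP5, DTX1, NRARP, CDKN1A and SNAI1 in comparisons where the rule did not name them were chosen after their values were seen. The alternatives tried were no filter, RLE size factors, DESeq2 1.42.0, the title suffix (UnTx or none) as a replicate block, offsets for GC content and length (natural splines, 5 degrees of freedom per library) with and without the block, leaving out each library, counts summed per line, limma-voom (limma 3.58.1) with the line as a random block, 1 mean per line and CPM on raw totals. Leaving out parental replicate 1 with KO 2F4 replicate 2 and leaving NRARP out of its list were added after the data were seen. A line left with 1 library was taken to vary as the other lines do. The alternative with 1 mean per line kept all 8 libraries in edgeR and set the mean of the clones against that of the controls. Its error came from within lines, so the difference between lines of a class did not enter it.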

Additional observations from a re-analysis of the deposited data

Results flagged for a closer look

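Single libraries far from the other 3 of their class were looked for in 158 groups of 4, and 5 were found. The cut is passed by about 1 in 20 groups of 4 independent values from a normal spread. Each group here holds 2 lines with 2 libraries each, so that rate need not hold and nothing is read from the number found. NOTCH1 had 109 CPM in EV 1B9 replicate 2, with the next control library at 66.0 CPM. MFAP2 had 66.8 CPM in KO 2F4 replicate 2, with the next knockout library at 17.9 CPM. NRARP had 2.22 CPM in KO 5H5 replicate 1, with the next knockout library at 1.05 CPM. CCN3, a non-canonical ligand gene, had 7.61 CPM in KO 2F4 replicate 1, with the next knockout library at 3.55 CPM. ADAM17, a receptor-cutting protease gene, had 9.79 CPM in EV 1B9 replicate 2, with the next control library at 4.0 CPM. The effect of a clone on LFNG depended on which control it was set against, since the log2 fold change of EV 1B9 against parental cells, which is the difference of those effects, was -4.44 (edgeR adjusted p = 0.00074).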

How the results depend on the processing

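In knockout against control the log2 fold changes of JAG2, HES2 and HES1 moved by less than 1.5 times over the alternatives, and those of other members and the counts of called genes moved further. In knockout against control (192 genes called), the count was 714 with no filter, 784 with DESeq2, 124 with the replicate block, 503 with GC and length offsets, 330 without parental replicate 1 and KO 2F4 replicate 2, 11 with counts summed per line, 34 with limma-voom, 1079 with 1 mean per line and 66 to 222 without 1 library. The other pathway genes called there (3) numbered 9 with no filter, 6 with DESeq2, 1 with the replicate block, 7 with GC and length offsets, 5 with these offsets and the block, 0 with counts summed per line or limma-voom, 10 with 1 mean per line and 0 to 2 without 1 library. The fit with 1 mean per line still used all 8 libraries and took its error within lines, so its counts do not treat the line as the unit. With the replicate block DTX1 (adjusted p = 0.064) and MFAP5 (adjusted p = 0.0719) were no longer called. In EV 1B9 against parental cells (209), the count was 946 with no filter, 1349 with DESeq2, 573 without parental replicate 1 and KO 2F4 replicate 2, and 167 to 2209 without 1 library. In KO 2F4 against KO 5H5 (61), it was 272 with no filter, 348 with DESeq2, 35 with the replicate block, 127 with the offsets, 103 with offsets and block, 434 without the pair of libraries and 59 to 1199 without 1 library. In KO 5H5 against EV 1B9 (681), it was 1375 with DESeq2, 2107 without the pair and 469 to 1589 without 1 library. In KO 2F4 against EV 1B9 (2019), it was 3428 with DESeq2 and 1526 to 4022 without 1 library. In KO 5H5 against parental cells (115), it was 259 with no filter, 363 with DESeq2, 350 without the pair and 95 to 741 without 1 library. In KO 2F4 against parental cells (208), it was 465 with no filter, 727 with DESeq2, 462 with the offsets, 384 with offsets and block, 414 without the pair and 214 to 1239 without 1 library. The cause was not tested. Of the other values under an alternative, 2061 kept their side of the threshold or moved little (within the spread, or for counts within 1.5 times), 69 newly passed, 96 no longer passed and 104 moved. Besides fold changes of single genes, these include mean levels, counts of members called and counts of other pathway genes called in comparisons of lines. A gene called in neither fit could count as kept though its sign turned. NOTCH1 in EV 1B9 against parental cells, at 0.32 and at -0.21 without EV 1B9 replicate 2, is 1 such case. Over all genes, the median log2 fold change in knockout against control was -0.41 with no filter and 0.00 without EV 1B9 replicate 2, beside -0.14.

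Libraries with the same title suffix deviated together in only some of the 6 pairs of lines (correlations -0.234 to 0.249), so they share a number and no known pairing. NOTCH3 (-2.37 in EV 1B9 against parental cells and -7.59 without EV 1B9 replicate 2), HEY1, MFAP2 and HEYL in EV 1B9 and HES2 in the knockout clones rest on few counts, which limits their precision.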
